A study of Mus musculus with 27 samples.

Results

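Transcripts of 9 receptors that sense foreign compounds, lipids and sterols were described in the livers of 27 mice. The genes were Nr1i2, Nr1i3, Ahr, Ppara, Pparg, Nr1h2, Nr1h3, Rora and Rxra, taken by symbol through their Ensembl identifiers, and they make up 9 of the 55414 genes of the count table. Each of the 9 averaged 10 counts or more and was among the 14114 genes tested. The mice were 8-week-old female Balb/c, and the study asked how blocking hyaluronan production changes the liver in carbon tetrachloride (CCl4) injury. The controls (n = 4) were injected with olive oil into the peritoneum and with PBS into the tail vein. The other groups without CCl4 received the oil together with 4-methylumbelliferone, an inhibitor of hyaluronan synthesis given by daily gavage for 2 weeks (4MU, n = 3), or siRNA in lipid nanoparticles against luciferase, which mice lack (siLuc, n = 3) or against hyaluronan synthase 2 (siHAS2, n = 3). The fibrosis groups received CCl4 alone (CCl4, n = 2) or CCl4 with the same agents (CCl4+4MU, CCl4+siLuc and CCl4+siHAS2, n = 4 each). The labels name no second agent or carrier for the CCl4 group, and with 2 mice it is the smallest group. By the study's methods, controls were also gavaged with the carrier of 4MU, and 4MU and siRNA were started before the first CCl4.

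Most of these receptors are transcription factors with a pocket for a small ligand. Nr1i2 encodes PXR and Nr1i3 encodes CAR, the sensors of drugs and toxins that switch on cytochrome P450 genes in hepatocytes. Ahr, which is not a nuclear receptor by structure, encodes the aryl hydrocarbon receptor, which pairs with ARNT on DNA. Ppara drives the burning of fatty acids in the fasted liver, Pparg is best known from adipocytes, and Nr1h2 and Nr1h3 encode LXR-beta and LXR-alpha, the sensors of oxidised cholesterol. Rora encodes a receptor of the clock and of lipid metabolism that binds DNA as a monomer, while PXR, CAR, both PPARs and both LXRs bind together with RXR-alpha, the product of Rxra.

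Of the 9 genes, 8 had 12 promoter entries of 300 bases (250 before and 50 after the start) in RefSeq (GRCm38.p6), and Ahr had no entry. The promoters of Nr1i3, Nr1h2 and Nr1i2 are shown because these 3 genes rose together in CCl4+4MU over CCl4 mice. They lie at chr1:171213720-171214019 on the plus strand, chr7:44553916-44554215 on the minus strand and chr16:38294775-38295074 on the minus strand, and capitals mark a match to one of 4 motifs searched on both strands.
Nr1i3: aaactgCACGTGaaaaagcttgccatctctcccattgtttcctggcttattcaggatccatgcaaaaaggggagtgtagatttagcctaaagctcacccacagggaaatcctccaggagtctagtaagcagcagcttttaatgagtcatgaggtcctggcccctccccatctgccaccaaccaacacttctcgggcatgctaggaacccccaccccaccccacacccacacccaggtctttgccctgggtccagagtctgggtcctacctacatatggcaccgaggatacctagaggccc
Nr1h2: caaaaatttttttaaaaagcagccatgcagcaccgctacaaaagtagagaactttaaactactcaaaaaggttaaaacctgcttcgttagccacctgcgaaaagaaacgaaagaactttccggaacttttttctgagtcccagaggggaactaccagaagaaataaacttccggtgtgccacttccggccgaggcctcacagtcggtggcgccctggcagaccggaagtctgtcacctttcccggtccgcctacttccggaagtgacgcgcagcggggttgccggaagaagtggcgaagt
Nr1i2: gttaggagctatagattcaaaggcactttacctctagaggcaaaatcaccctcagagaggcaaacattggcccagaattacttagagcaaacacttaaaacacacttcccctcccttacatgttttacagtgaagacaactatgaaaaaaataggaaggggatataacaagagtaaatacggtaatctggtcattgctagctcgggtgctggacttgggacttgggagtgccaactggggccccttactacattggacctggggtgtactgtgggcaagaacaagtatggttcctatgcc
The only capitals are a CACGTG (E-box) at -244 to -239 of Nr1i3. Of 32851 promoters of this length 7.15% held it, and the 4 motifs were chosen after these sequences had been seen. None of the 3 promoters held the nuclear receptor half-site AGGTCA (16.3% of all promoters), the GCGTG core bound by AHR and ARNT (32.4%) or the GC box GGGCGG (35.7%). G and C made up 54.0% of the bases for Nr1i3, 50.7% for Nr1h2 and 45.3% for Nr1i2, against a median of 52.7% over all promoters. AGGTCA was found in 1 of the Rxra promoters and in 2 of the 3 of Pparg.

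Levels are given as CPM, counts scaled to a common library total after trimmed-mean (TMM) normalisation. Total counts ran from 7044386 to 29425937 per library, so that 3 counts, taken as the detection limit, came to 0.102 to 0.426 CPM. Hepatocyte markers were abundant in all 27 libraries, whereas the 5 adipocyte markers summed to at most 0.222 CPM. Has2, the transcript that siHAS2 targets, had no counts in 25 libraries, 2 counts in CCl4 replicate 2 and 1 in CCl4+siLuc replicate 4, so it could not be used to check the labels. Markers of dividing cells summed to 1.33 to 25.2 CPM without CCl4 and to 37.5 to 508 CPM with it. The libraries also differed in base composition. For each library, the median level of the 20% of tested genes richest in G and C, relative to each gene's mean, was set against that of the 20% poorest. This GC measure ran from -0.62 in CCl4+siLuc replicate 4 to 0.81 in CCl4+4MU replicate 4. Fits with this measure as a covariate were added after seeing the data. Since these are whole livers, fewer cells of a type and less RNA per cell cannot be told apart.

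Per kilobase of exon, Rxra was the most abundant of the 9 transcripts in the control mice, with 51.0 ± 15.2 CPM per kb (SD, n = 4). Nr1i2 (25.4 ± 2.11) and Nr1h3 (23.2 ± 3.04) followed and overlapped each other. Nr1h2 (13.0 ± 1.64) and Nr1i3 (10.9 ± 2.67) formed an overlapping pair below them. Ahr (6.0 ± 0.740), Ppara (4.59 ± 2.55) and Rora (4.42 ± 0.932) also overlapped as neighbours in this order, and Pparg was lowest with 1.60 ± 0.216 CPM per kb. Among the 4 controls, the level of Ppara varied most relative to its mean, from 15.6 to 49.9 CPM.

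Nr1i3 (chr1:171041506-171048270, plus strand, GRCm39) showed the largest averaged difference of the 9 between mice with and without CCl4. Without CCl4, Nr1i3 was at 63.4, 51.7, 33.6 and 53.4 CPM in the control mice, 59.8, 43.3 and 42.6 with 4MU, 56.9, 50.9 and 75.5 with siLuc and 42.5, 43.3 and 49.2 with siHAS2. With CCl4 it was 12.3 and 8.10 CPM in the CCl4 mice, 39.5, 33.5, 22.2 and 52.9 in CCl4+4MU, 11.1, 17.2, 31.0 and 7.83 in CCl4+siLuc and 38.4, 27.5, 30.9 and 17.9 in CCl4+siHAS2. Of the 14 mice given CCl4, 11 lay below all 13 other mice. Averaged over the 4 pairs of groups with and without CCl4, the log2 fold change of Nr1i3 was -1.30 with a standard error of 0.18 (adjusted p = 1.45e-06, edgeR quasi-likelihood test with Benjamini-Hochberg adjustment). The fall was -2.31 in CCl4 against control (adjusted p = 0.000217) and -1.88 in CCl4+siLuc against siLuc (adjusted p = 0.000227). It was -0.39 (95% interval -1.07 to 0.29) with 4MU and -0.64 (-1.32 to 0.05) with siHAS2 in both members of the pair, which did not pass the threshold. With the GC covariate the fall with 4MU was -1.04 and passed (adjusted p = 0.00355), the only 1 of 15 alternative settings in which it did. The fall with siHAS2 passed in 3 of 15 alternative settings. These were limma-voom (-0.73, adjusted p = 0.0384), no low-count filter (-0.67, adjusted p = 0.0325) and siHAS2 and CCl4+siHAS2 fitted alone (-0.65, adjusted p = 0.0368). The test of a difference among these 4 falls passed (adjusted p = 0.0439). That call was lost without CCl4 replicate 2 (adjusted p = 0.14) and without any 1 of 16 other mice (adjusted p from 0.0524 to 0.075). Those were control replicates 1, 2 and 4, 4MU replicates 2 and 3, the 3 siHAS2 mice, siLuc replicate 3, CCl4+4MU replicates 1, 2 and 4, CCl4+siHAS2 replicates 1, 2 and 3, and CCl4+siLuc replicate 1. The values for each mouse also differed within CCl4+siLuc, where replicates 1 and 4 were close to the CCl4 mice and replicate 3 to the CCl4+siHAS2 mice. Nr1i3 overlaps Tomm40l on the other strand, and the strand setting of the counting is not stated, so reads of both genes may be mixed.

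Nr1i2 (chr16:38068685-38115216, minus strand) did not pass the threshold in any of these 4 comparisons or in their average (-0.13, 95% interval -0.36 to 0.11). With the GC covariate the average was -0.19 and passed (adjusted p = 0.0312), the only 1 of 35 alternative settings in which it did. Without CCl4, Nr1i2 was at 69.0, 62.9, 66.1 and 76.2 CPM in the control mice, 84.3, 66.2 and 71.4 with 4MU, 58.0, 67.7 and 76.1 with siLuc and 73.8, 78.9 and 100 with siHAS2. With CCl4 it was 60 and 38.0 CPM in the CCl4 mice, 90.1, 92.0, 91.6 and 125 in CCl4+4MU, 36.8, 61.0, 85.3 and 40.2 in CCl4+siLuc and 88.4, 74.5, 68.0 and 67.7 in CCl4+siHAS2. CCl4 replicate 2 and CCl4+siLuc replicates 1 and 4 were below all mice without CCl4, while the 4 CCl4+4MU mice were above all of those except siHAS2 replicate 3. In CCl4+siLuc against siLuc, Nr1i2 was at -0.27 (adjusted p = 0.392). It was at -0.53 (adjusted p = 0.0462) without CCl4+siLuc replicate 3, the highest of its group, and passed in 1 of 15 alternative settings.

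**Figure D1:**
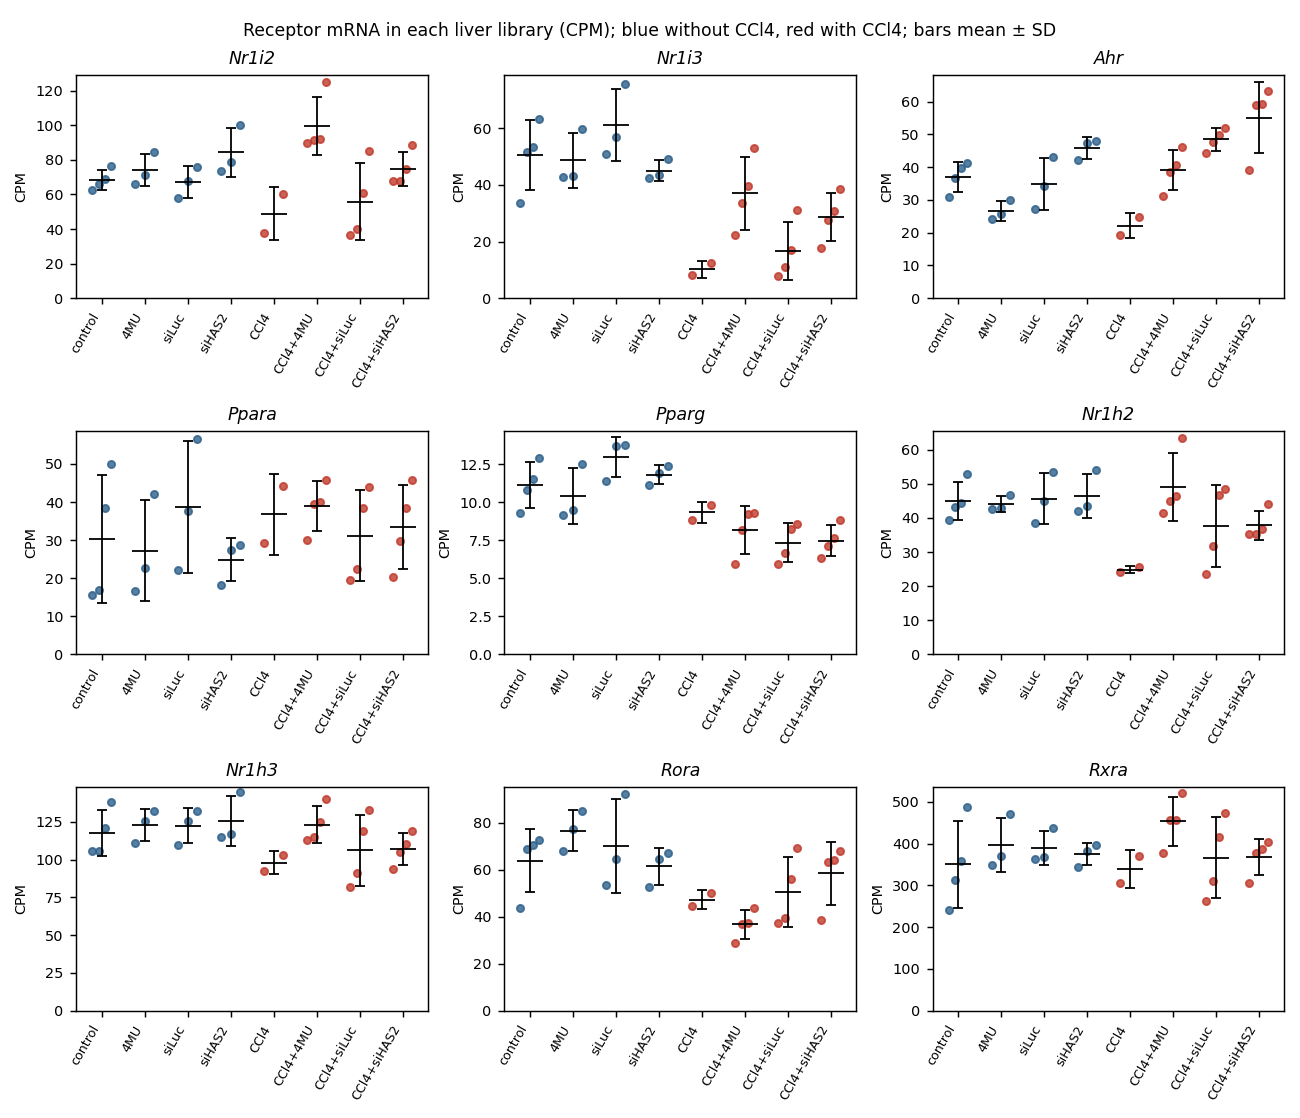
CPM (y axis, from 0, TMM-scaled) of the 9 receptor transcripts in each of 8 groups (x axis). Each point is 1 liver library, blue without and red with CCl4, and bars give the mean and SD; Nr1i3 lies below 13 CPM in both CCl4 mice and Ahr below 25 CPM in both.

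Ahr (chr12:35547973-35585057, minus strand) moved in opposite directions in different arms. Without CCl4, Ahr was at 30.8, 39.7, 36.7 and 41.1 CPM in the control mice, 25.7, 24.2 and 29.9 with 4MU, 27.3, 43.0 and 34.3 with siLuc and 48.1, 47.4 and 42.0 with siHAS2. With CCl4 it was 24.8 and 19.4 CPM in the CCl4 mice, 40.6, 46.0, 38.4 and 31.2 in CCl4+4MU, 49.8, 47.6, 52.1 and 44.2 in CCl4+siLuc and 39.2, 63.1, 58.9 and 59.2 in CCl4+siHAS2. The CCl4 mice were below every control mouse, whereas the CCl4+4MU mice were above every 4MU mouse and the CCl4+siLuc mice above every siLuc mouse. Ahr fell by 0.75 in CCl4 against control (standard error 0.20, adjusted p = 0.00479). It rose by 0.55 in CCl4+4MU against 4MU (adjusted p = 0.0191) and by 0.47 in CCl4+siLuc against siLuc (adjusted p = 0.0419), and was 0.26 higher in CCl4+siHAS2 than in siHAS2 (95% interval -0.08 to 0.61). The test of the difference among the 4 arms gave an adjusted p of 0.0163. Without CCl4 replicate 2 the fall was -0.56 (adjusted p = 0.139) and the difference among arms had an adjusted p of 0.133. The rise with 4MU lost its call without 4MU replicate 1 (adjusted p = 0.0559), 4MU replicate 2 (0.0851) or CCl4+4MU replicate 2 (0.0672). The rise with siLuc passed in 7 of 15 alternative settings and was lost without siLuc replicate 1 (adjusted p = 0.228), siLuc replicate 3 (0.0934), CCl4+siLuc replicate 1 (0.0706) or CCl4+siLuc replicate 3 (0.0632).

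Pparg (chr6:115337675-115468268, plus strand) was low throughout, with 66 to 316 counts per library. Without CCl4, Pparg was at 11.6, 10.8, 9.31 and 12.9 CPM in the control mice, 9.53, 9.18 and 12.5 with 4MU, 11.4, 13.7 and 13.8 with siLuc and 11.2, 12.4 and 12.0 with siHAS2. With CCl4 it was 8.86 and 9.83 CPM in the CCl4 mice, 9.34, 8.18, 5.95 and 9.22 in CCl4+4MU, 8.27, 6.67, 5.94 and 8.56 in CCl4+siLuc and 7.67, 6.35, 7.11 and 8.81 in CCl4+siHAS2. In 11 of 14 mice with CCl4 the level was below all mice without it. On average Pparg fell by 0.52 (log2, as for all changes given here, with a standard error of 0.09, adjusted p = 2.91e-05), by 0.81 in CCl4+siLuc against siLuc (adjusted p = 0.00104) and by 0.67 in CCl4+siHAS2 against siHAS2 (adjusted p = 0.0107). These 3 calls were kept in all alternative settings. The adipocyte genes Adipoq and Plin1 were at or under 0.118 CPM and 0.0392 CPM. Of 5 markers of Kupffer cells, the resident macrophages, 4 were lower on average with CCl4, where 51.9% of all genes passed. In CCl4 against control and in CCl4+4MU against 4MU, 1 was higher and 1 lower. The summed level of these markers was 150 to 335 CPM with 4MU against 186 to 381 CPM in CCl4+4MU. It was 218 to 401 CPM with siLuc against 112 to 195 CPM in CCl4+siLuc, and 314 to 366 CPM with siHAS2 against 89.2 to 124 CPM in CCl4+siHAS2. The part of Kupffer cells in the fall of Pparg was not tested.

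Ppara (chr15:85618656-85687067, plus strand) ranged from 15.6 to 56.6 CPM in mice without CCl4 (median 27.3) and from 19.6 to 45.9 CPM with it (median 38.4). The averaged difference was 0.23 with an interval from -0.19 to 0.64, and no comparison passed the threshold. Within the control group alone the highest level was more than 3 times the lowest. Ppara overlaps Cdpf1 on the other strand.

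Nr1h2 (chr7:44199036-44203406, minus strand) was lower in both CCl4 mice than in every other library except 1. Without CCl4, Nr1h2 was at 52.8, 44.3, 39.3 and 43.2 CPM in the control mice, 46.8, 42.7 and 42.9 with 4MU, 38.6, 44.8 and 53.4 with siLuc and 42.0, 43.5 and 53.9 with siHAS2. With CCl4 it was 25.5 and 24.2 CPM in the CCl4 mice, 46.5, 45.0, 41.3 and 63.5 in CCl4+4MU, 31.8, 48.6, 46.6 and 23.7 in CCl4+siLuc and 44.1, 36.6, 35.3 and 35.3 in CCl4+siHAS2. That library was CCl4+siLuc replicate 4. Nr1h2 fell by 0.85 in CCl4 against control (standard error 0.23, adjusted p = 0.00532), though without CCl4 replicate 2 the fall of 0.79 had an adjusted p of 0.0776. The averaged fall was 0.32 (standard error 0.10, adjusted p = 0.00989). Nr1h3 (chr2:91014394-91033417, minus strand), the more abundant LXR of the liver, ranged from 105.4 to 145 CPM without CCl4 and from 81.8 to 140 CPM with it. Its averaged difference of -0.17 (95% interval -0.34 to -0.0092) did not pass after adjustment (adjusted p = 0.0713). It passed in 3 of 35 alternative settings, with adjusted p up to 0.304 in the others. These 3 were without CCl4+siLuc replicate 2 (-0.19, adjusted p = 0.0354), limma-voom (0.0317) and the GC covariate (-0.21, adjusted p = 0.00103). The start of Nr1h3 overlaps Acp2 on the other strand.

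Rora (chr9:68561068-69295528, plus strand) had its lowest group mean in the mice that received both CCl4 and 4MU. Without CCl4, Rora was at 43.8, 72.6, 68.9 and 70.5 CPM in the control mice, 67.8, 77.3 and 85.0 with 4MU, 92.2, 64.7 and 53.6 with siLuc and 67.2, 64.8 and 52.5 with siHAS2. With CCl4 it was 50.1 and 44.5 CPM in the CCl4 mice, 37.3, 43.8, 37.0 and 28.9 in CCl4+4MU, 56.3, 37.2, 39.6 and 69.1 in CCl4+siLuc and 38.7, 64.2, 68.2 and 63.2 in CCl4+siHAS2. All 4 CCl4+4MU mice lay below the 3 mice given 4MU alone, and Rora fell by 1.06 in that comparison (standard error 0.23, adjusted p = 0.00132), which passed in all 15 alternative settings. With the GC covariate the fall was -0.60 (adjusted p = 0.00285). The averaged fall was 0.51 (standard error 0.12, adjusted p = 0.000877). In CCl4+siHAS2 against siHAS2 the difference was -0.07 (95% interval -0.54 to 0.40), and the test of the difference among arms did not pass (adjusted p = 0.174).

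Rxra (chr2:27566452-27653330, plus strand) ranged from 240 to 488 CPM without CCl4 (median 368) and from 261 to 522 CPM with it (median 382). No comparison passed the threshold for this shared partner, and the interval of the averaged difference ran from -0.21 to 0.23. Its relative Rxrb, a second gene of the family, changed by -0.16 on average (standard error 0.10, adjusted p = 0.174).

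The share of receptors that changed with CCl4 was set beside that of all tested genes. In CCl4 against control 3 of 9 passed, where 34.0% of all tested genes did. With 4MU in both groups 2 of 9 passed (23.7% of all genes), with siLuc 3 of 9 (24.2%) and with siHAS2 1 of 9 (12.8%). In the average over the 4 arms 4 of 9 passed, all lower, against 51.9% of all genes in either direction. The test of the difference among arms called 2 of 9, Nr1i3 and Ahr, against 5.02% of all genes. The median of the 9 averaged differences was -0.17, and that of all tested genes -0.015.

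**Figure D2:**
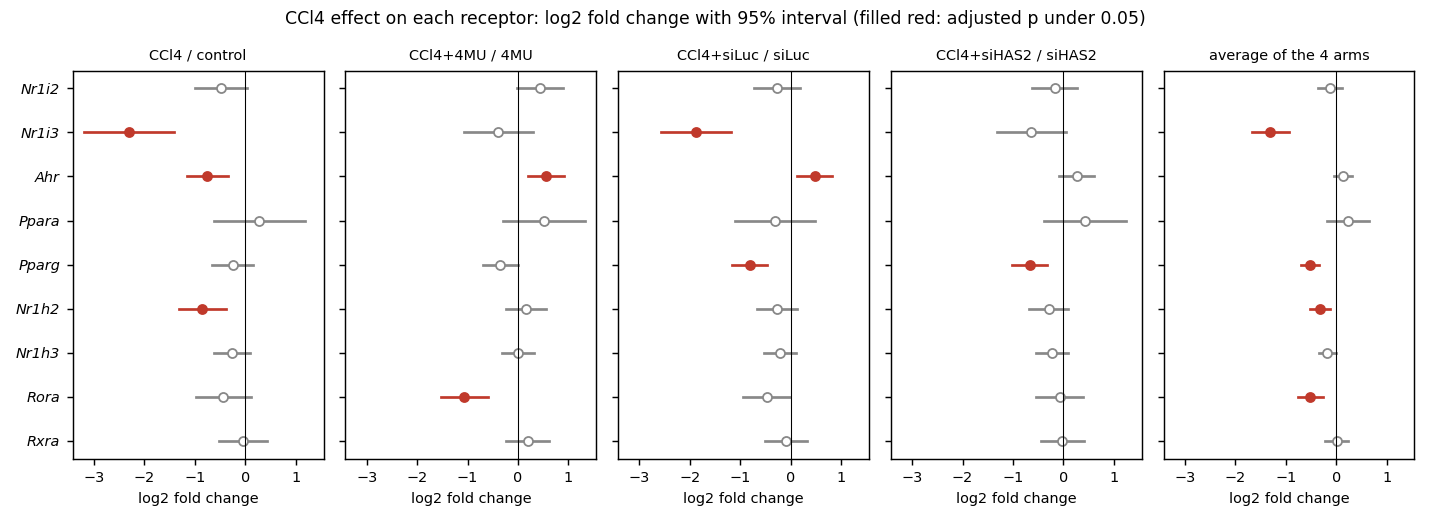
Log2 fold change (x axis) of each receptor (y axis) with CCl4 in 4 pairs of groups and in their average. Lines are 95% intervals and filled red points passed an adjusted p of 0.05; Nr1i3 lies at -2.31 in the left panel and Ahr changes side between the first and second panels.

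In mice with CCl4, each treatment was compared with the same 2 CCl4 mice, so that the comparisons share their reference. In CCl4+4MU against CCl4, 4 of 9 receptors passed and all were higher, where 18.3% of all tested genes passed. Nr1i3 rose by 1.86 (standard error 0.42, adjusted p = 0.00459), Nr1i2 by 1.02 (0.26, adjusted p = 0.00924), Nr1h2 by 0.98 (0.23, adjusted p = 0.00535) and Ahr by 0.82 (0.20, adjusted p = 0.00651). For each of these 4 genes, every CCl4+4MU mouse was above both CCl4 mice. The 4 were picked by this same comparison, so the separation is no further support. The share of all genes so separated was not counted. Leaving out CCl4 replicate 2 ended all 4 calls, with rises of 1.56, 0.70, 0.92 and 0.62 and adjusted p of 0.132, 0.239, 0.109 and 0.178 in the same order. Over all genes, 184 passed without that mouse in place of 2580. The study itself picked out Nr1i3 as higher in both treatments from these libraries, so its rise is not independent evidence. In the same comparison, hepatocyte markers summed to 79540 to 133300 CPM in the CCl4 mice and to 152100 to 183200 CPM in CCl4+4MU. Of the 5 tested, 2 passed as higher, and the median log2 fold change of the 5 was 0.11. Markers of dividing cells summed to 244 to 508 and 37.5 to 167 CPM, with 4 of 4 lower. The part of these cells in the rises of the receptors was not tested.

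In CCl4+siHAS2 against CCl4, 2 of 9 passed, where 14.4% of all genes did. Ahr rose by 1.32 (standard error 0.20, adjusted p = 0.000535) and Nr1i3 by 1.504 (0.41, adjusted p = 0.0181). Without CCl4 replicate 2 the rise of Ahr still passed (1.12, adjusted p = 0.0422), while that of Nr1i3 did not (1.20, adjusted p = 0.268), and 108 of all genes passed in place of 2038. Markers of Kupffer cells summed to 242 to 268 CPM in the CCl4 mice and to 89.2 to 124 CPM in CCl4+siHAS2, with 4 of 5 lower. Those of stellate cells summed to 360.2 to 451 and 134 to 218 CPM, with 3 of 6 lower, and 2 of 4 markers of dividing cells were lower. Their part in the rises of Ahr and Nr1i3 was not tested. In CCl4+siLuc against CCl4, the control for the nanoparticle, Ahr alone passed with a rise of 1.13 (0.20, adjusted p = 0.0131), where 0.248% of all genes did. That call was lost without CCl4 replicate 2 (adjusted p = 0.191) and with only these 6 mice in the fit (adjusted p = 0.764). Without CCl4+siLuc replicate 4, which had the lowest Nr1h2 of its group, Nr1h2 passed as well (0.76, adjusted p = 0.0178). That was the case in 1 of 15 alternative settings. For Ahr, every mouse given CCl4 with an agent was above both CCl4 mice, which is no further support because Ahr had passed in these comparisons.

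**Figure D3:**
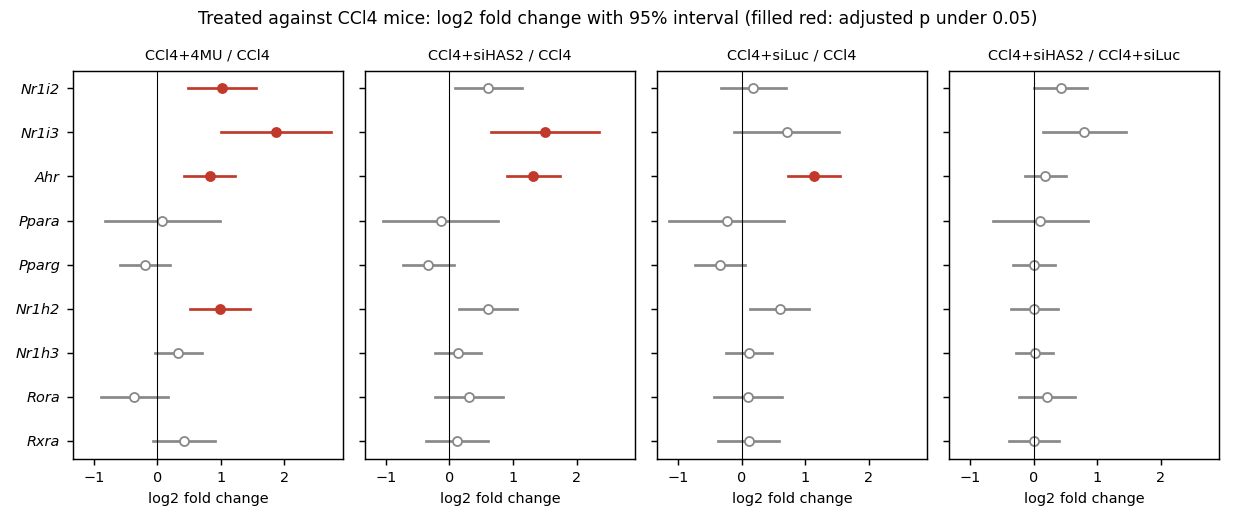
Log2 fold change (x axis) of each receptor (y axis) between fibrosis groups, with 95% intervals; filled red points passed an adjusted p of 0.05. Ahr is higher against CCl4 alone in the first 3 panels, at 0.82, 1.32 and 1.13, and no receptor passed in CCl4+siHAS2 against CCl4+siLuc.

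The direct comparison of siHAS2 with its own nanoparticle control called none of the 9 receptors in fibrotic mice, where 1.09% of all genes passed. Nr1i3 was 0.80 higher (95% interval 0.15 to 1.45, adjusted p = 0.195) and Nr1i2 0.42 higher (adjusted p = 0.296), and both had an unadjusted p under 0.05. CCl4+siLuc replicate 3 had the highest Nr1i3 of its group, so leaving it out raises the difference in any case. It was then 1.24 (adjusted p = 0.0382). Nr1i3 passed in 3 of 16 alternative settings, with adjusted p up to 0.437. For Ahr the interval ran from -0.13 to 0.50. CCl4+4MU against CCl4+siHAS2 also called none (1.22% of all genes), with Ahr at -0.50 (adjusted p = 0.096) and Rora at -0.67 (adjusted p = 0.10), and 3 receptors had an unadjusted p under 0.05. Ahr passed in 2 and Rora in 3 of 16 alternative settings. Both genes passed in limma-voom (adjusted p = 0.0219 and 0.0182). They also passed without CCl4+siHAS2 replicate 1 (0.0298 and 0.0375), which had the lowest level of both in its group. With the GC covariate they were at -0.37 and -0.21 (adjusted p = 0.424 and 0.59).

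Without CCl4, none of the 9 receptors passed with 4MU (0.00709% of all genes), with siLuc against control (0.213%) or with siHAS2 against siLuc (0.0425%). The unadjusted p was under 0.05 for 1, 0 and 1 of them, and DESeq2 and limma-voom called none. Ahr had the lowest adjusted p with 4MU, at -0.48 (95% interval -0.83 to -0.13, adjusted p = 0.466), and with siHAS2 it was at 0.39 (0.03 to 0.76, adjusted p = 0.514). The widest interval was that of Ppara with siHAS2, from -1.51 to 0.22.

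Within groups, several receptors moved together from mouse to mouse. After group means were subtracted, Pearson's r of log2 CPM over the 27 libraries was 0.88 for Nr1h2 with Nr1h3, 0.83 for Nr1h2 with Nr1i3 and 0.80 for Nr1i2 with Nr1i3. Rora went the other way, with r of -0.87 to Nr1h2 and -0.86 to Nr1h3. Ahr and Pparg were tied to none of the others beyond 0.41. The points of these correlations share the depth and base composition of each library.

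Several members moved with the GC measure from mouse to mouse. Within groups, r with it over the 27 libraries was 0.93 for Nr1h2, whose transcripts hold 60.7% G and C, 0.88 for Nr1h3 (56.5%), 0.80 for Nr1i2 (53.2%), 0.77 for Nr1i3 (53.2%) and -0.89 for Rora (42.5%). Leaving out the 2 libraries with the most extreme measure, r was 0.89 for Nr1h2 and -0.88 for Rora. Over all 27 libraries it was 0.57 for Rxra (57.2%), 0.17 for Ppara (51.7%), -0.36 for Ahr (46.0%) and -0.17 for Pparg (46.9%). All 4 CCl4+4MU mice had a measure of 0.145 or higher, and both CCl4 mice were negative, at -0.162 and -0.286.

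With the GC covariate, the comparison of CCl4+4MU with CCl4 kept 1 of its 4 calls. Ahr was higher by 0.99 (adjusted p = 0.018), while Nr1i3 was at 1.03 (adjusted p = 0.058), Nr1h2 at 0.44 (adjusted p = 0.0509) and Nr1i2 at 0.51 (adjusted p = 0.127). In CCl4+siHAS2 against CCl4 the same fit called 5 receptors, with Nr1i3 at 1.30 (adjusted p = 0.00334) and Ahr at 1.36 (adjusted p = 0.00026). The averaged fall of Nr1i3 with CCl4 was then -1.42 (adjusted p = 7.9e-10) and that of Rora -0.46 (adjusted p = 2.03e-06). Whether the measure reflects the libraries or the livers was not tested.

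**Figure D4:**
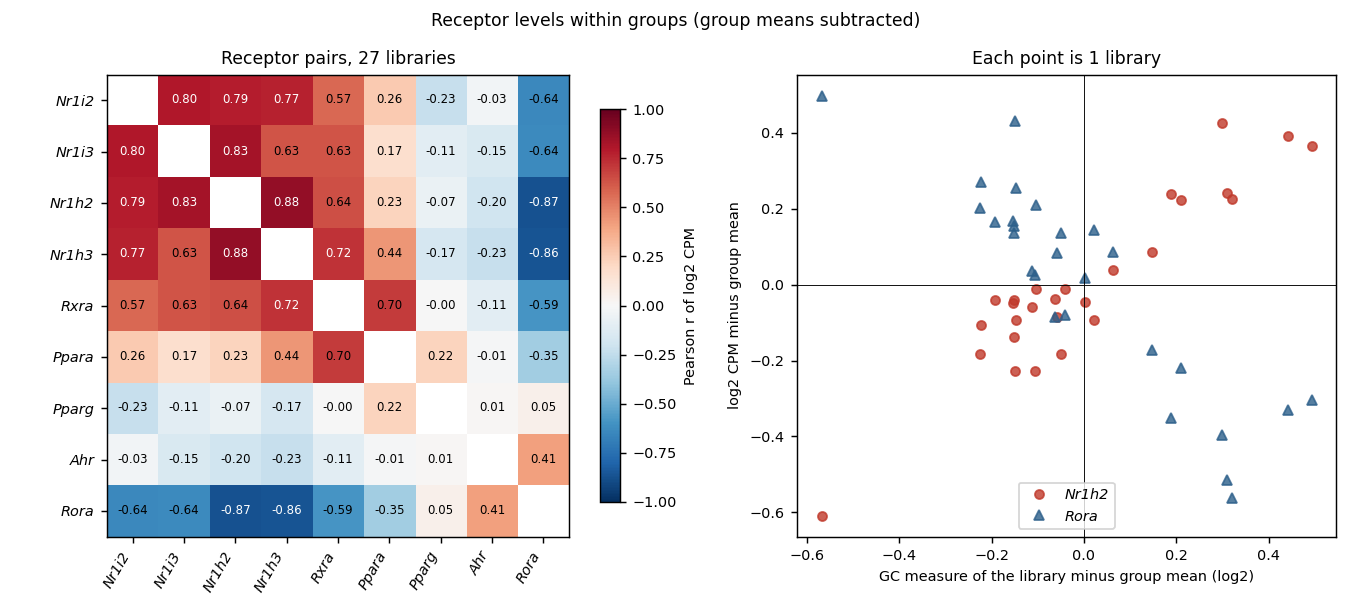
Left, Pearson's r of log2 CPM between receptors over 27 libraries after subtracting group means (colour scale from -1 to 1). Right, the same deviations of Nr1h2 (circles) and Rora (triangles) in log2 CPM against the deviation of the GC measure, 1 point per library; Nr1h2 goes up (r = 0.93) and Rora down (r = -0.89).

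Partners and targets of the receptors were read from 8 lists. Changes of listed genes against CCl4 rest on the same 2 CCl4 mice, and their values without CCl4 replicate 2 were not examined. Of 16 genes regulated by PXR and CAR, 3 were higher and 7 lower on average with CCl4, where 51.9% of all genes passed. Cyp2a5, which hydroxylates coumarin, fell by 5.41 (adjusted p = 3.25e-14) and Cyp2c37 by 1.46 (adjusted p = 3.94e-08), while Cyp2c55 rose by 2.31 (adjusted p = 1.30e-07) and the drug pump gene Abcb1a by 0.81. The genes most used to read CAR and PXR activity did not pass, with Cyp2b10 at 0.15 (adjusted p = 0.66) and Cyp3a11 at -0.09 (adjusted p = 0.626). In CCl4+4MU against CCl4 3 of the 16 rose, near the 18.3% of all genes that passed, among them Cyp3a25 by 1.39 and Cyp2c37 by 1.19. With edgeR, 9 of the 16 had an unadjusted p under 0.05, as had 4777 of all 14114 genes. The median log2 fold change of the 16 was 0.87, and that of all genes 0.0375. In CCl4+siHAS2 against CCl4 1 of the 16 passed (14.4% of all genes), Cyp3a25 with a rise of 1.46. There 2 of the 16 had an unadjusted p under 0.05 (4215 of all genes), and the median was 0.45 (0.0165 for all genes). Cyp2c and Cyp3a genes have close copies, and reads that map to several places were not counted, so their values are uncertain.

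Of 9 tested genes of the AHR complex and its targets, 2 rose and 2 fell on average with CCl4, where 51.9% of all genes passed. Its typical targets parted, as Cyp1a1 rose by 1.14 (adjusted p = 0.000789) and Cyp1a2 fell by 1.16 (adjusted p = 2.26e-05). Arnt, the DNA-binding partner, rose by 0.39 (adjusted p = 0.000105), and Ptges3, a cochaperone of the receptor, fell by 0.34. Against the CCl4 mice, Cyp1a2 rose by 1.5 in CCl4+4MU and 1.46 in CCl4+siHAS2, and Nqo1, a quinone reductase, by 1.24 and 1.10. Ptges3 fell by 0.55 in CCl4+4MU.

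Of 18 PPAR-alpha targets, 1 rose and 8 fell on average with CCl4, a share near the 51.9% of all genes. Cyp4a10, a fatty acid hydroxylase, fell by 1.85 and Fabp1, the fatty acid binding protein of hepatocytes, by 1.34, while Vnn1, which encodes a pantetheinase, rose by 0.99. Vnn1 fell by 1.98 in CCl4+4MU and by 1.42 in CCl4+siHAS2 against CCl4, and Plin2, a coat protein of lipid droplets, fell by 1.03 in CCl4+4MU. The CCl4 mice differed in both genes. Vnn1 had 404 counts in replicate 1 and 1176 in replicate 2, against 176 to 216 in CCl4+4MU. Plin2 had 6879 and 19423 counts in these mice, against 4960 to 8080 in CCl4+4MU. Of 5 tested PPAR-gamma targets, 3 rose and none fell on average, again near the 51.9% of all genes. Lpl rose by 1.94 and Fabp4 by 1.32, and Fabp4 is also a gene of endothelial cells and macrophages. Fabp4 was lower again by 1.32 in CCl4+4MU and by 1.52 in CCl4+siHAS2 than in CCl4, and Plin4, another coat protein gene, was higher by 2.75 and 2.80.

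Of 13 LXR targets, 2 rose and 5 fell on average with CCl4, near the 51.9% of all genes. Abcg1 rose by 0.82 and Abca1 by 0.41, while Abcg8 fell by 1.24 and the fatty acid synthase gene Fasn by 1.11. In edgeR, Abcg8 had a standard error of 0.18 (adjusted p = 2.73e-06) and Fasn 0.43 (adjusted p = 0.0311). Fasn ran from 3450 to 38395 counts among the controls. Against the CCl4 mice, Cyp7a1, the rate-limiting enzyme of bile acid synthesis, was higher by 2.79 in CCl4+4MU and by 2.51 in CCl4+siHAS2, and Apoe by 1.02 in CCl4+4MU. Of 8 ROR-alpha targets none rose and 3 fell on average (51.9% of all genes), with the fatty acid elongase gene Elovl3 down by 5.73 and the oxysterol hydroxylase gene Cyp7b1 by 2.67. Elovl3 had 4 to 148 counts per library without CCl4 and 0 to 7 with it. These lie around the detection limit of 3 counts, so the size of its fall is uncertain. With edgeR no ROR-alpha target passed against the CCl4 mice in CCl4+4MU (18.3% of all genes) or in CCl4+siHAS2 (14.4%). An unadjusted p under 0.05 was found for 0 of 8 in CCl4+4MU and 3 of 8 in CCl4+siHAS2. With 8 genes, such shares would give few calls.

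Among 12 tested relatives of the receptors, 1 rose and 5 fell on average (51.9% of all genes). Rarb, a retinoic acid receptor gene, rose by 0.63 (adjusted p = 0.0373), and Rxrg fell by 0.67 and Nr0b2, which encodes the repressor SHP, by 0.64. The bile acid receptor gene Nr1h4 rose against CCl4 in both treatments, by 0.72 in CCl4+4MU and by 0.78 in CCl4+siHAS2. Of 11 coregulators none rose and 3 fell on average (51.9% of all genes), with Nrip1 down by 0.45 and Ncor1 by 0.37. With edgeR none passed against CCl4 in CCl4+4MU (18.3% of all genes) or in CCl4+siHAS2 (14.4%), and 1 of 11 had an unadjusted p under 0.05 in each. The genes Rorb, Vdr, Ahrr, Cidea, Mogat1 and Adipoq of these lists were too low to be tested.

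**Figure D5:**
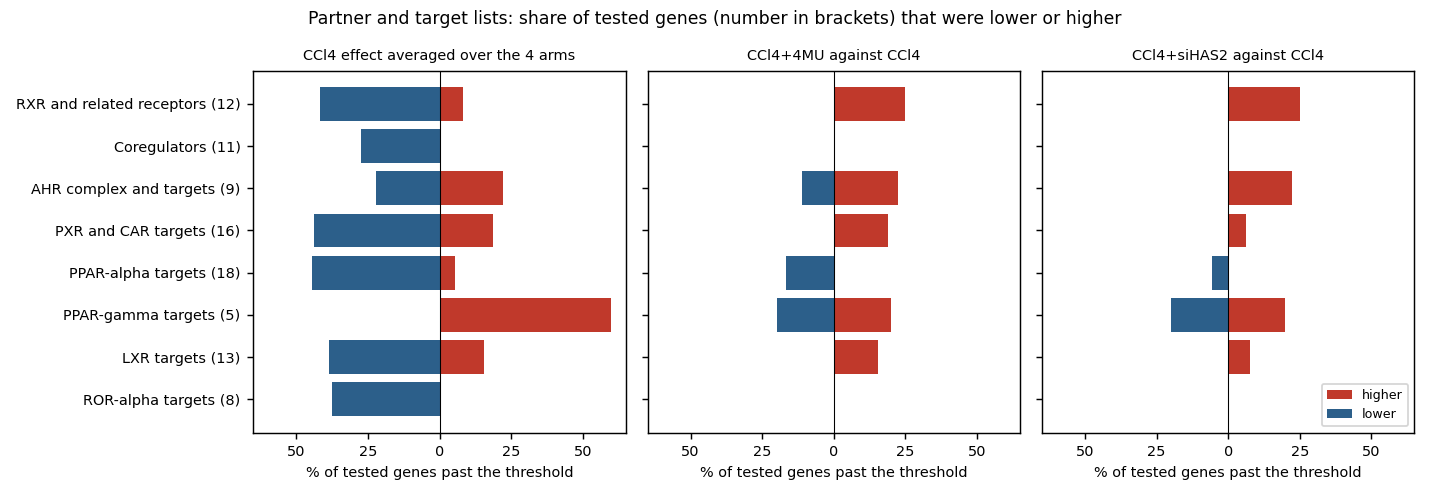
Share of tested genes past the threshold (x axis, percent; red to the right higher, blue to the left lower) in 8 lists of partners and targets (y axis, number tested in brackets) for 3 comparisons. ROR-alpha targets and coregulators have bars in the first panel only, at 3 of 8 and 3 of 11 genes, all lower.

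The genes most like each member over the 27 libraries were found by Pearson's r of log2 CPM. For Nr1i3 they were Coro7 (0.94), Gcgr, the glucagon receptor gene (0.94), and Entpd8 (0.93). Nr1i2 was most like Etnk2 (0.91), Phkg2 (0.87) and Sds (0.86), and Nr1h2 like F12, Prrg2 and Tmem259 (0.94, 0.94 and 0.92). Nr1h3 was most like Zdhhc7, Rnpepl1 and Mon1a (0.91, 0.90 and 0.90), and Rora like Kdm7a, Smim10l1 and Mtdh (0.96, 0.93 and 0.93). For Rxra the genes were Man2b1, Ttc7 and Ece1 (0.86, 0.85 and 0.84) and for Ppara Wdr48, Pdpr and Chdh (0.87, 0.86 and 0.85). Ahr had the loosest match, with Mrtfb at 0.82, Snora20 at 0.75 and Fam83f at 0.74. Pparg was most like Arrdc4, Fam107b and Endod1 (0.83, 0.83 and 0.82), and within groups these fell to 0.40, 0.31 and 0.26. For Nr1i3 the 3 genes stayed between 0.72 and 0.80 within groups.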

How the data were processed

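Livers of 27 mice were profiled by polyA RNA-seq with a directional kit and paired reads. The deposited values are raw counts per gene for 55414 genes. Per the labels and the methods, the authors trimmed reads with Trimmomatic 0.39, aligned them to GRCm39 with HISAT2 and counted read pairs with featureCounts, leaving out reads with more than 1 place in the genome; the HISAT2 version and strand setting are not given in the sources used here.

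Identifiers were matched to GENCODE vM39 (54749 of 55414), and promoters came from RefSeq (GRCm38.p6). Genes averaging 10 counts or more over all libraries were tested (14114) in R 4.3.3 with edgeR 4.0.16 (TMM, quasi-likelihood test, all 8 groups in 1 fit, Benjamini-Hochberg threshold 0.05), DESeq2 1.42.0 and limma 3.58.1 being alternatives. Python 3.11.15, pandas 2.3.3, numpy 2.4.6 and matplotlib 3.10.9 were used for descriptions. The test was checked on simulated data. Total counts of 7044386 to 29425937 put 3 counts at 0.102 to 0.426 CPM.

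Alternatives were DESeq2, its size factors in edgeR, limma-voom (sample quality weights), no low-count filter, fits of only the compared groups, a replicate block, and each mouse left out. The GC and gene length measures as covariates, and CCl4 replicate 2 and CCl4+siLuc replicate 4 left out together, were added after seeing the data. The members and lists were chosen with earlier results of these data known. Named genes were the members, Cyp3a11, Cyp2b10, Cyp1a1, Cyp1a2, Arnt, Nr0b2, Rxrb, Adipoq, Plin1 and Fabp4, the up to 2 genes per list and direction with the largest change past the threshold, and the 3 genes most like each member. A gene that this rule also names is not reported here. Libraries are taken as separate mice; otherwise p-values measure technical spread alone. The count of table columns not used was 0.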

Additional observations from a re-analysis of the deposited data

Results flagged for a closer look

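In groups of 4 mice, 36 sets of values were checked for a single mouse standing apart (Dixon's ratio), and chance alone flags about 5% of the sets checked. Of these sets 4 were flagged. Nr1i2 was at 125 CPM in CCl4+4MU replicate 4, with the other 3 mice between 90.1 and 92.0 CPM, and this library also had the highest GC measure of all, 0.809. Markers of ductal cells summed to 269 CPM in it, against 109 to 206 CPM in the other 3 mice. Those of stellate cells summed to 145 CPM, against 201 to 297 CPM. Nr1h2 was at 44.1 CPM in CCl4+siHAS2 replicate 1 and between 35.3 and 36.6 CPM in the rest of its group. The same mouse had 38.7 CPM of Rora, below the 63.2 to 68.2 CPM of the others, and the highest GC measure of its group, 0.257. Control replicate 1 had 43.8 CPM of Rora against 68.9 to 72.6 CPM in the other controls, and a GC measure of 0.266 where the other controls were negative. The part of the GC measure or of the cell types in these values was not tested.

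The CCl4 effect differed between the 4 arms for Ahr (adjusted p = 0.0163, edgeR quasi-likelihood test) and for Nr1i3 (adjusted p = 0.0439). For Ahr the fold change was negative with CCl4 alone and positive in the 3 other arms, and the call was kept in 33 of 35 alternative settings, the exceptions being those without CCl4 replicate 2 (adjusted p = 0.133, and 0.0998 when CCl4+siLuc replicate 4 was left out as well). For Nr1i3 the fold change was negative in all 4 arms, and the call was kept in 16 of 35.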

How the results depend on the processing

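Nr1i3, Pparg and Rora kept their averaged fall with CCl4 in all 35 alternative settings, and Nr1h2 in 34, the exception being the gene length covariate (-0.19, adjusted p = 0.127). DESeq2 and DESeq2's size factors left each count of members within 1.5 times the main one. Limma-voom called 2 members in CCl4+siHAS2 against siHAS2 and 2 in CCl4+4MU against CCl4+siHAS2. Without the low-count filter the counts were 2 and 1 there, and 1 in CCl4+siHAS2 against CCl4+siLuc. With only the compared groups they were 2 in CCl4+siHAS2 against siHAS2 and 0 in CCl4+siLuc against CCl4. With the GC covariate they were 5 in CCl4+siLuc against siLuc, 1 in CCl4+4MU against CCl4, 5 in CCl4+siHAS2 against CCl4 and 2 in CCl4+siHAS2 against CCl4+siLuc.

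No pairing of mice by replicate number was seen. Deviations of same-numbered libraries correlated between -0.32 and 0.293 (median -0.0167), and those of differently numbered libraries between -0.455 and 0.455 (median -0.0124). With the replicate block the difference among arms called 1 member in place of 2 (Nr1i3, adjusted p = 0.0614).

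Leaving out single mice gave 1 to 3 members in CCl4 against control, 1 to 2 in CCl4+4MU against 4MU, 0 to 3 for the difference among arms, 0 to 4 in CCl4+4MU against CCl4, 1 to 2 in CCl4+siHAS2 against CCl4, 0 to 2 in CCl4+siLuc against CCl4, 0 to 1 in CCl4+siHAS2 against CCl4+siLuc and 0 to 2 in CCl4+4MU against CCl4+siHAS2. In the comparisons that use the CCl4 group the lowest counts came without CCl4 replicate 2, which leaves a lone CCl4 mouse that is assumed to vary like the other groups. Without CCl4 replicate 2 and CCl4+siLuc replicate 4 the difference among arms and CCl4+siLuc against CCl4 called 0.

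Signs were checked for the averaged differences, and for those other differences that passed in the main fit or in any alternative setting. Among these, signs turned only for averaged differences that had not passed in the main fit. The signs of other differences that never passed were not examined. Rxra ran from -0.0302 to 0.0575 over mice left out, and was -0.0215 with the GC and -0.0048 with the length covariate. With the length covariate Nr1i2 was at 0.0061 and Ppara at -0.0796. The cause of these shifts was not tested. With 2 CCl4 mice, the comparisons against CCl4 are the least precise.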
